A study of Rattus norvegicus with 12 samples.

Results

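The nuclear-encoded ribosomal RNA genes were taken as every row of the deposited count table named exactly 5S_rRNA or 5_8S_rRNA, or holding 18s or 28s in its name in either case. The rule found 206 of the 30560 rows, each with an Ensembl gene ID of its own: 2 rows of 18S, 1 of 28S, 33 of 5.8S and 170 of 5S. The rule reads row names and no counts. A row named Rn5s lies outside the rule and had 0 to 8 counts in a library. Many of the rows are near-identical copies of 1 RNA, and the sources used here do not state how reads that match several copies were counted, so the division of counts among copies is uncertain.

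RNA was sequenced from mitochondrial preparations of gastrocnemius muscle, a hindlimb skeletal muscle, of 1 wild-type male Wistar Kyoto rat aged 14 weeks. The 12 libraries form 4 groups of 3, and every group received RNase A, which degrades RNA that is not enclosed or otherwise shielded. The mitoplast_RNase libraries came from mitoplasts, which are mitochondria without their outer membrane, made from mitochondria captured on magnetic beads by immunoprecipitation. The IP_RNase_ProK libraries came from bead-captured mitochondria that also received proteinase K, a protease, and the IP_RNase libraries from bead-captured mitochondria with RNase A alone. The crude_RNase libraries came from mitochondria sedimented by differential centrifugation and treated with RNase A. The 9 libraries of the first 3 groups are called captured libraries here. Aliquots of a single pooled homogenate gave rise to all preparations, so p-values measure the spread between aliquots and not between animals. No group without RNase A was analysed here, and the source label of the crude libraries names immunoprecipitation while their titles name crude mitochondria, which were followed.

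A cytosolic ribosome carries 18S rRNA in its small subunit and 28S, 5.8S and 5S rRNA in its large subunit. The 18S, 5.8S and 28S rRNAs are cut from a common precursor made by RNA polymerase I in the nucleolus, and 5.8S rRNA is base-paired with 28S rRNA in the finished subunit. The 5S rRNA is made separately by RNA polymerase III from its own gene copies, is bound by Rpl5 and Rpl11 before assembly, and has been reported to enter mitochondria in mammalian cells. Mitochondrial ribosomes have rRNAs of their own, encoded on the mitochondrial chromosome.

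The libraries were made with a kit that depletes rRNA, so the counts describe what was left after depletion. Crude libraries were prepared from 6.3 ng of RNA and captured ones from 40 ng, a difference that cannot be told apart from the preparation. The 9 captured libraries held 3325430 to 4563254 gene counts and the crude libraries 6583452 to 7123045. Genes of the mitochondrial chromosome took a mean of 3.28% of counts in mitoplast_RNase, 2.75% in IP_RNase_ProK, 6.51% in IP_RNase and 49.5% in crude_RNase libraries. IP_RNase replicate 3 stood apart from its group, with 10.9% of counts from these genes against 5.27% and 3.33% in replicates 1 and 2. The 8 measured skeletal muscle fibre markers together took 0.0470% to 0.0675% of counts in captured libraries and 0.293% to 0.335% in crude libraries. None of the 8 was at 0 in a library, and the part of either difference in the rRNA results was not tested. A count share in such bulk preparations cannot tell fewer organelles or cell fragments carrying an RNA from less of it in each.

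Captured and crude preparations differed most in 18S and 28S rRNA. The 206 rows together took 0.0798% ± 0.00764 of all gene counts in mitoplast_RNase, 0.0819% ± 0.00381 in IP_RNase_ProK, 0.0777% ± 0.0111 in IP_RNase and, in crude_RNase libraries, 2.22% ± 0.0745 (mean ± SD, n = 3 each). The share in crude libraries was 27.8 times that in mitoplast_RNase, 27.1 times that in IP_RNase_ProK and 28.6 times that in IP_RNase libraries. The captured libraries spanned 0.0674% to 0.0895%, and no captured library came near the crude ones. Counted against nuclear genes alone, the shares were 0.0825%, 0.0842%, 0.0835% and 4.44% in the same order of groups.

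The composition of the rRNA counts differed too. The 18S rows made up 53.9% of the rRNA counts in mitoplast_RNase, 57.6% in IP_RNase_ProK, 57.7% in IP_RNase and 96.5% in crude_RNase libraries. The 5.8S rows made up 32.2%, 31.3%, 29.0% and 0.684% in the same order, and the 5S rows 10.4%, 9.86%, 10.9% and 0.153%. A single 18S row held 91.4% of all rRNA counts of the series. Without that row the remaining rows took 0.0371%, 0.0351%, 0.0331% and 0.141% of gene counts, still highest in crude libraries.

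**Figure D1:**
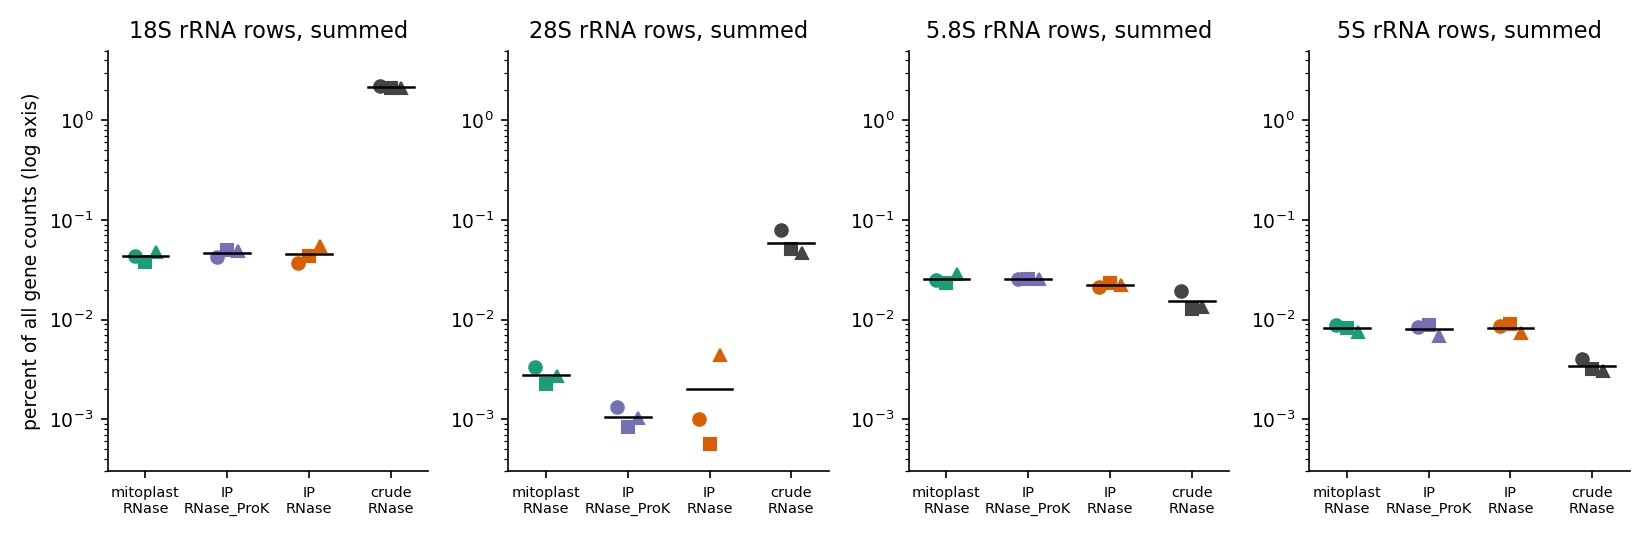
Share of all gene counts, in percent on a log axis, taken by the 18S, 28S, 5.8S and 5S rows in each library; circle, square and triangle are replicates 1, 2 and 3 and the bar is the group mean. For 18S and 28S the crude libraries lie far above the 9 captured ones (18S mean 2.14% in crude_RNase), whereas for 5.8S and 5S the captured groups' means lie above the crude mean.

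Counting was very uneven across the rows. Of the 206 rows, 83 had 0 counts in all 12 libraries, and all 83 were 5S rows, 48.8% of the 170 annotated 5S copies. The same held for 5 of 1115 olfactory receptor genes (0.448%), a family named for its role in smell that served as a yardstick for low counts, and for 562 of 30317 nuclear genes outside the rRNA rows (1.85%). A count in every library was found for 60 rRNA rows. For the median olfactory receptor gene, captured libraries held 37 to 49 counts and crude libraries 30 to 34. In all 12 libraries, 4 rRNA rows exceeded that median, 1 of 18S and 3 of 5.8S, and no 5S row exceeded it in any library. The filter on low counts kept 41 rRNA rows for testing: both 18S rows, the 28S row, 26 of 33 5.8S rows and 12 of 170 5S rows. The 165 rows left out had 0 to 22 counts in a library and could not be compared at this depth.

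Of the 41 tested rows, 5 passed the test in mitoplast_RNase against crude_RNase, 1 higher and 4 lower, where 5.54% of the 26483 tested genes passed, 0.997% higher and 4.54% lower (edgeR's quasi-likelihood F test, Benjamini-Hochberg adjusted p under 0.05). In IP_RNase_ProK against crude_RNase 8 rows passed, 2 higher and 6 lower, beside 6.49% of all tested genes (1.45% higher, 5.04% lower). In IP_RNase against crude_RNase 10 rows passed, 2 higher and 8 lower, beside 6.36% of all tested genes (1.26% higher, 5.09% lower). These 3 comparisons share the crude libraries, so their values are given side by side and not as repeats of one another. The median log2 fold change of the 41 rows was -0.28 in mitoplast_RNase, -0.28 in IP_RNase_ProK and -0.21 in IP_RNase against crude_RNase, beside medians of 0.00, 0.00 and 0.01 over all tested genes. Most of the tested rows are 5.8S copies, and the rows called lower with the largest differences were the 18S and 28S rows. The rows called higher were 5S rows, and both (ENSRNOG00000064405 and ENSRNOG00000069035) passed the filter on low counts through captured libraries, where they were high, so their count is a description.

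Among the captured groups few rows differed. In mitoplast_RNase against IP_RNase 2 of the 41 rows passed, 1 higher and 1 lower, beside 0.155% of all tested genes (0.0227% higher, 0.132% lower). In IP_RNase_ProK against IP_RNase 1 row passed, higher, beside 0.14% of all tested genes (0.0302% higher, 0.11% lower). In mitoplast_RNase against IP_RNase_ProK edgeR called 0 rows, beside 0% of all tested genes; 5 rows and 741 genes had an unadjusted p under 0.05, and DESeq2 also called 0 rows and 0 genes. The CPM ranges of the 2 groups lay apart for 12, 15 and 13 of the 41 rows in mitoplast_RNase, IP_RNase_ProK and IP_RNase against crude_RNase, beside 19%, 20.5% and 19.4% of all tested genes. They lay apart for 5, 8 and 4 rows in mitoplast_RNase against IP_RNase, IP_RNase_ProK against IP_RNase and mitoplast_RNase against IP_RNase_ProK, beside 16%, 16.6% and 9.47% of all tested genes. The shares of rRNA rows with separate ranges were not tested against those of other genes.

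**Figure D2:**
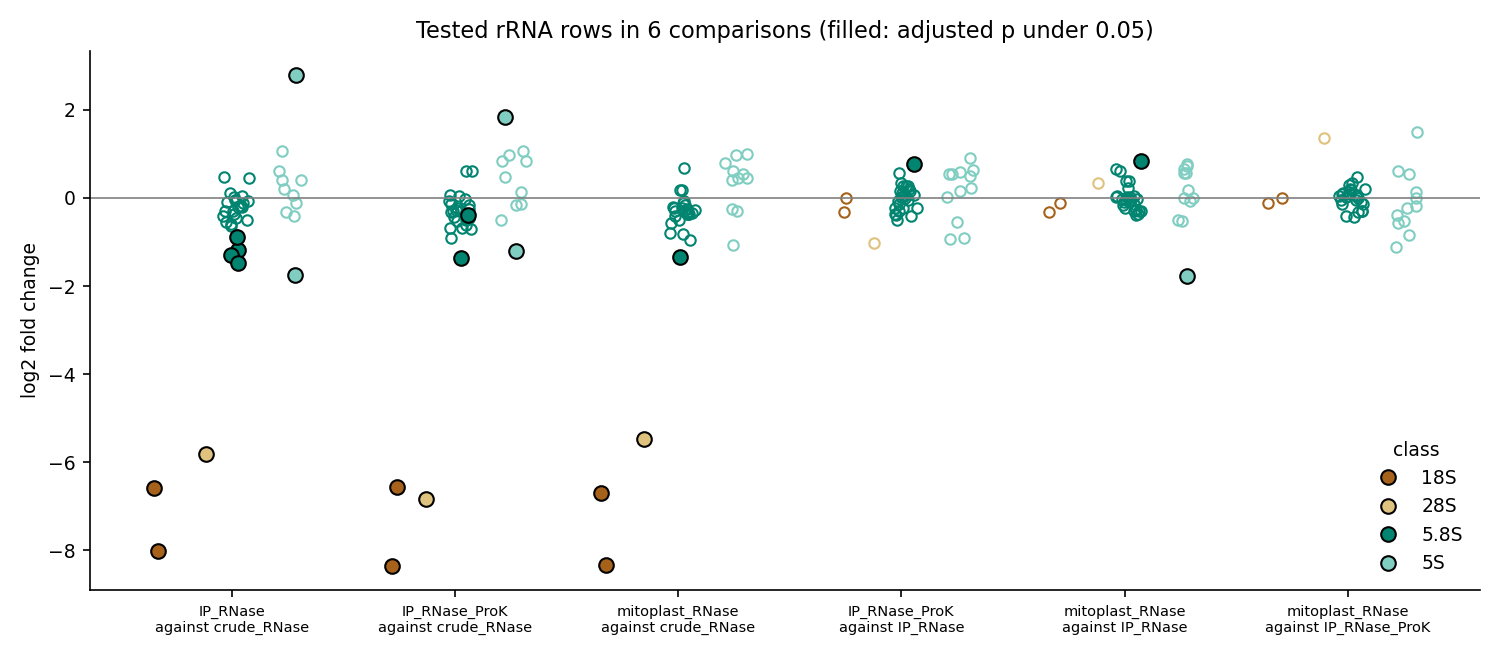
Log2 fold change (first-named group over the second) of the tested rRNA rows in the 6 comparisons, coloured by class, with filled points past an adjusted p of 0.05; the 5S row at 0 counts in crude libraries is left out of the comparisons against crude_RNase. The 18S and 28S rows lie between -8.34 and -5.46 against crude_RNase, while most 5.8S and 5S rows scatter around 0.

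The main 18S row, ENSRNOG00000068307, carries the RNA of the small subunit. It had 1699, 1576 and 1801 counts in mitoplast_RNase, 1921, 1841 and 1869 in IP_RNase_ProK, 1309, 1422 and 2139 in IP_RNase and 142050, 145660 and 137485 in crude_RNase libraries. Every crude library was far above every captured library. The 3 mitoplast_RNase counts lay below the 3 IP_RNase_ProK counts, and both groups overlapped IP_RNase. On TMM-scaled library sizes the row averaged 353 ± 42.5 CPM in mitoplast_RNase, 384 ± 35.2 in IP_RNase_ProK, 383 ± 95.7 in IP_RNase and, in the crude_RNase libraries, 36463 ± 3992 (n = 3 each, SD), and on this scale all captured groups overlapped. It was the most counted of the 30523 nuclear rows in each crude library and still ranked between 20 and 38 in the captured libraries.

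The log2 fold change of this row was -6.69 ± 0.207 (SE) in mitoplast_RNase against crude_RNase (edgeR adjusted p = 3.94e-33), a 103-fold lower level. It was -6.57 ± 0.206 in IP_RNase_ProK (edgeR adjusted p = 6.73e-33) and -6.57 ± 0.206 in IP_RNase (edgeR adjusted p = 7.08e-33), both about 95-fold lower than in crude_RNase. Scaling on mitochondrial mRNAs, which make up much of the crude libraries, reduced these differences to -1.72, -1.60 and -2.77 without changing their direction. Between captured groups the row gave -0.12 ± 0.165 in mitoplast_RNase against IP_RNase and 0.00 ± 0.164 in IP_RNase_ProK against IP_RNase, with edgeR adjusted p of 0.872 and 0.998.

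The other 18S row, ENSRNOG00000062337, was close to empty outside the crude preparation. It had 19, 24 and 8 counts in mitoplast_RNase, 18, 15 and 19 in IP_RNase_ProK, 16, 16 and 24 in IP_RNase and 2924, 5644 and 4607 in crude_RNase libraries. Its log2 fold change against crude_RNase was -8.34 ± 0.216 in mitoplast_RNase, -8.34 ± 0.215 in IP_RNase_ProK and -8.02 ± 0.213 in IP_RNase (edgeR adjusted p = 9.07e-37, 7.9e-37 and 3.43e-36). These were the lowest log2 fold changes among the 41 rows. For every 1000 counts of the main 18S row it had 4.44 to 15.2 counts in captured libraries and 20.6 to 38.7 in crude libraries. It exceeded the median olfactory receptor gene in crude libraries only. How reads matching both rows were counted is not known, so the ratios describe counts and not the RNA copies.

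The single 28S row, ENSRNOG00000064743, stands for the large rRNA of the large subunit. It had 133, 95 and 101 counts in mitoplast_RNase, 60, 31 and 40 in IP_RNase_ProK, 36, 19 and 174 in IP_RNase and 5178, 3675 and 3126 in crude_RNase libraries. All crude libraries were above all captured libraries, and IP_RNase replicate 3 was the highest captured library. The row exceeded the median olfactory receptor gene in 8 of the 12 libraries. It did not in IP_RNase replicates 1 and 2 and IP_RNase_ProK replicates 2 and 3. The size of differences and ratios that rest on those libraries is therefore uncertain. The row ranked between 10 and 16 among nuclear rows in crude libraries and between 6357 and 23084 in captured ones.

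Against crude_RNase the 28S row had log2 fold changes of -5.46 ± 0.196 in mitoplast_RNase (edgeR adjusted p = 3.89e-30), -6.83 ± 0.222 in IP_RNase_ProK (4.25e-32) and -5.81 ± 0.205 in IP_RNase (2.12e-30). The call in mitoplast_RNase was lost under mitochondrial mRNA scaling, at -0.56 with an edgeR adjusted p of 0.115. Without IP_RNase replicate 3, the library that also stood apart in mitochondrial counts, the value in IP_RNase was -7.25.

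Among the captured groups the 28S row was higher in every mitoplast_RNase library than in any IP_RNase_ProK library, at 22.9 ± 4.61 against 8.72 ± 1.93 CPM (SD, n = 3 each). The log2 difference of 1.36 ± 0.304 did not pass the adjusted test (edgeR adjusted p = 0.538, unadjusted p = 4.07e-05). It passed when only these 2 groups were fitted (adjusted p = 1.74e-10) and when IP_RNase replicate 3, crude_RNase replicate 1 or crude_RNase replicate 2 was left out. IP_RNase averaged 17.7 ± 19.3 CPM, and its replicate 3 weighed on both comparisons with it. IP_RNase_ProK against IP_RNase was -1.02 ± 0.325 (edgeR adjusted p = 0.271) and 0.42 without that library. The value in mitoplast_RNase against IP_RNase was 0.34 ± 0.273 (edgeR adjusted p = 0.742) and 1.78 without it.

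**Figure D3:**
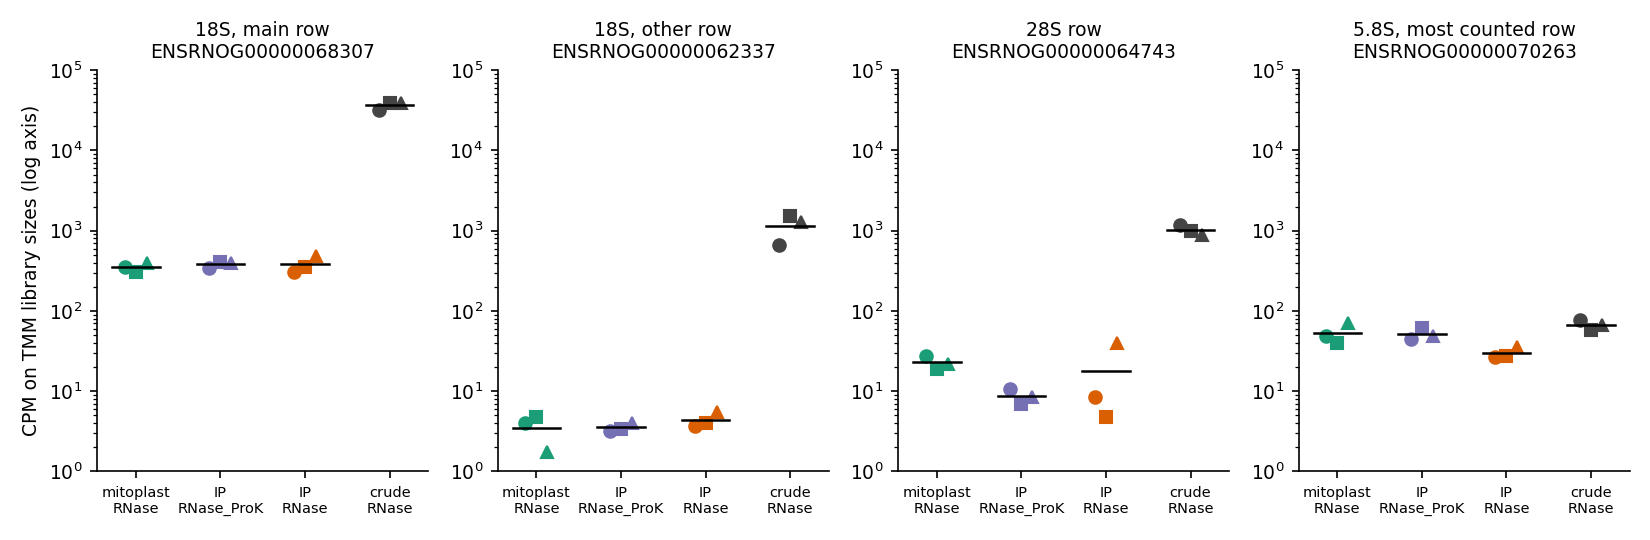
CPM on TMM-scaled library sizes, on a log axis, of the main 18S row, the other 18S row, the 28S row and the most counted 5.8S row; circle, square and triangle are replicates 1, 2 and 3 and the bar is the group mean. The 18S and 28S rows separate the crude libraries from the captured ones, while the 5.8S row averages 29.9 to 53.4 CPM in the captured groups and 67.3 CPM in crude libraries.

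The 5.8S rows, copies of the short RNA that pairs with 28S rRNA, did not show a drop of the size seen for 18S and 28S. Together they took 0.0257% of gene counts in mitoplast_RNase, 0.0256% in IP_RNase_ProK, 0.0222% in IP_RNase and 0.0153% in crude_RNase libraries, so the captured means were 1.69, 1.67 and 1.46 times the crude mean. On TMM-scaled library sizes the direction was the opposite, with log2 fold changes of the summed 5.8S counts of -0.31, -0.33 and -0.47 against crude_RNase. The direction of the summed 5.8S counts against crude_RNase therefore depended on the scaling.

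The most counted 5.8S row, ENSRNOG00000070263, held 23.1% of the 5.8S counts. It had 236, 204 and 324 counts in mitoplast_RNase, 249, 277 and 229 in IP_RNase_ProK, 114, 111 and 155 in IP_RNase and 341, 216 and 241 in crude_RNase libraries. IP_RNase was the low group in counts and in CPM on TMM-scaled library sizes, with every library below every library of the other 3 groups. The means were 53.4 ± 15.9 CPM in mitoplast_RNase, 51.6 ± 8.80 in IP_RNase_ProK, 29.9 ± 4.88 in IP_RNase and, in crude_RNase, 67.3 ± 9.33 (n = 3 each, SD).

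This was the 1 rRNA row that passed the test upward between captured groups. In mitoplast_RNase against IP_RNase its log2 fold change was 0.83 ± 0.138, with an edgeR adjusted p of 0.000293, 1 of 6 genes higher in that comparison. In IP_RNase_ProK against IP_RNase it was 0.78 ± 0.138, with an edgeR adjusted p of 0.000886, 1 of 8 genes higher in that one. Without mitoplast_RNase replicate 3 the adjusted p of the mitoplast comparison was 0.0817, and without IP_RNase replicate 1 or IP_RNase_ProK replicate 2 the proteinase K comparison lost its call, with adjusted p up to 0.0716. DESeq2 gave an adjusted p of 0.0998 for the proteinase K comparison. Mitoplast_RNase and IP_RNase_ProK overlapped, with a difference of 0.05 ± 0.123 (edgeR adjusted p = 1.00).

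Against crude_RNase the same row was lower in IP_RNase, at -1.17 ± 0.136 on the log2 scale, with an edgeR adjusted p of 1.3e-09. In IP_RNase_ProK it gave -0.40 ± 0.122 (edgeR adjusted p = 0.0344) with overlapping ranges, a call that was lost in 4 of 12 fits that left out a library and had an adjusted p of 0.527 in DESeq2. In mitoplast_RNase it gave -0.35 ± 0.122 (edgeR adjusted p = 0.0870). Under scaling by library size the IP_RNase_ProK and mitoplast_RNase values turned to 0.68 and 0.72, and under mitochondrial mRNA scaling all 3 turned positive.

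Relative to the main 18S row within the same library, a ratio that needs no scaling between libraries, this 5.8S row separated captured from crude preparations. For every 1000 counts of 18S it had 139, 129 and 180 counts in mitoplast_RNase, 130, 150 and 123 in IP_RNase_ProK, 87.1, 78.1 and 72.5 in IP_RNase and 2.40, 1.48 and 1.75 in crude_RNase libraries. The lowest captured value was 30.2 times the highest crude value. IP_RNase was also the lowest captured group by this ratio. The 28S row had 78.3, 60.3 and 56.1 counts for every 1000 counts of 18S in mitoplast_RNase, 31.2, 16.8 and 21.4 in IP_RNase_ProK, 27.5, 13.4 and 81.3 in IP_RNase and 36.5, 25.2 and 22.7 in crude_RNase libraries. The 28S to 18S ratio thus overlapped between captured and crude preparations, apart from mitoplast_RNase, whose 3 libraries lay above all crude and all IP_RNase_ProK libraries. Such a ratio describes the counts left after rRNA depletion. It does not show how the RNAs themselves changed, or that either stayed constant.

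**Figure D4:**
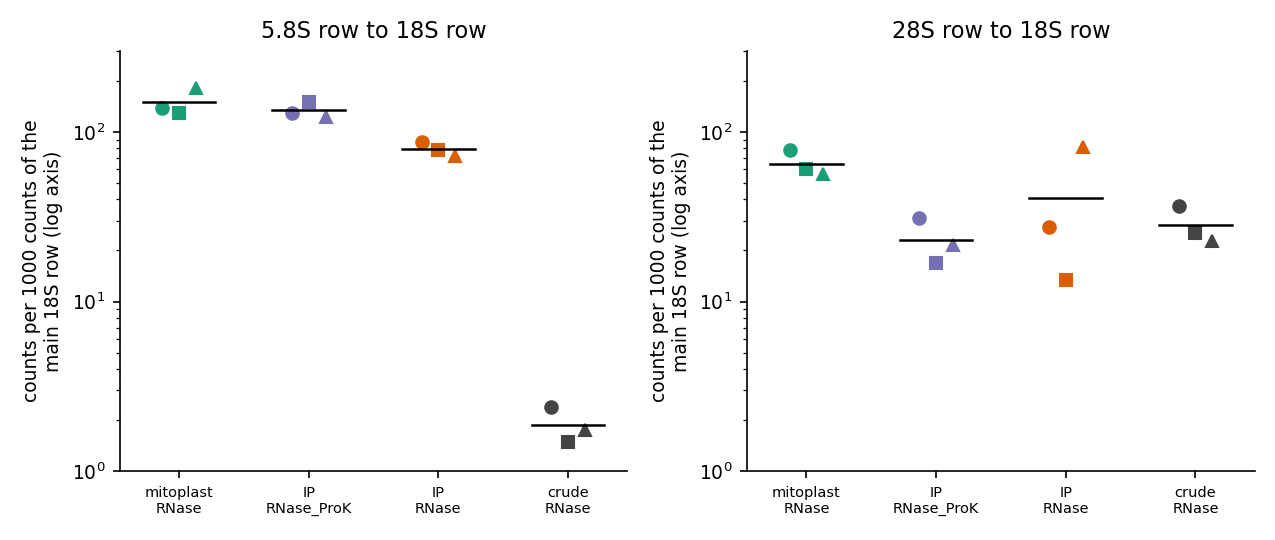
Counts of the most counted 5.8S row and of the 28S row for every 1000 counts of the main 18S row in the same library, on a log axis; circle, square and triangle are replicates 1, 2 and 3 and the bar is the group mean. The 5.8S ratio is 72.5 to 180 in captured and 1.48 to 2.40 in crude libraries, while the 28S ratios overlap.

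The other 25 tested 5.8S rows had 4 to 82 counts in a library. Of the 25, 2 exceeded the median olfactory receptor gene in all 12 libraries, 12 in some of them and 11 in none. The median log2 fold change of the 25 was -0.29 in mitoplast_RNase, -0.31 in IP_RNase_ProK and -0.22 in IP_RNase against crude_RNase, and -0.04 to 0.03 between captured groups. Against crude_RNase 1, 1 and 3 of the 25 were lower in edgeR, beside 4.54%, 5.04% and 5.09% of all tested genes. DESeq2 called 0 of the 25 but gave no adjusted p for 7, 9 and 3 of these rows. In each comparison of captured groups edgeR called 0 of the 25, with 0 at an unadjusted p under 0.05. The most counted of the 25, ENSRNOG00000067463, had 72, 72 and 80 counts in mitoplast_RNase, 80, 79 and 79 in IP_RNase_ProK, 56, 79 and 60 in IP_RNase and 82, 81 and 59 in crude_RNase libraries. Its groups overlapped, and its log2 fold changes against crude_RNase lay between -0.29 and -0.23 with no call. ENSRNOG00000068370, with 42 to 76 counts in a library, likewise passed no test.

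Of the 25, ENSRNOG00000063349 was called in all 3 comparisons with crude_RNase. It had 8, 14 and 10 counts in mitoplast_RNase, 12, 8 and 12 in IP_RNase_ProK, 8, 11 and 10 in IP_RNase and 21, 21 and 24 in crude_RNase libraries. Each crude library had more counts than any captured one. Crude libraries also held more gene counts in total, so this order of counts does not show a larger share. The log2 fold changes were -1.34 ± 0.327, -1.37 ± 0.327 and -1.29 ± 0.335 in mitoplast_RNase, IP_RNase_ProK and IP_RNase (edgeR adjusted p = 0.00459, 0.00332 and 0.00827). The mitoplast_RNase call was lost without mitoplast_RNase replicate 1, the IP_RNase call without IP_RNase replicate 1 or crude_RNase replicate 3, and mitochondrial mRNA scaling turned all 3 values positive. Of these comparisons, DESeq2 gave the row an adjusted p only in IP_RNase against crude_RNase, where it was not called.

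ENSRNOG00000069942 and ENSRNOG00000069242 were called in IP_RNase against crude_RNase only among the 3 comparisons, with no test of that difference between comparisons. ENSRNOG00000069942 had 17, 24 and 29 counts in IP_RNase and 42, 41 and 37 in crude_RNase libraries, or -0.88 ± 0.243 on the log2 scale with an edgeR adjusted p of 0.0144. ENSRNOG00000069242 had 5, 4 and 7 counts in IP_RNase and 16, 12 and 14 in crude_RNase libraries, or -1.48 ± 0.419 with an edgeR adjusted p of 0.0185. Both calls were lost without IP_RNase replicate 1, and that of ENSRNOG00000069242 also without IP_RNase replicate 2 or crude_RNase replicate 3. DESeq2 gave ENSRNOG00000069942 an adjusted p but did not call it, and gave none for ENSRNOG00000069242. Both turned positive under mitochondrial mRNA scaling, and ENSRNOG00000069942 did so under scaling by library size as well.

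The 5S rows were counted at a very low level in every preparation. All 170 rows together had a mean of 328 counts in mitoplast_RNase, 326 in IP_RNase_ProK, 299 in IP_RNase and 232 in crude_RNase libraries, spread over 57.3, 53.0, 56.0 and 47.0 rows with a count. As a share of gene counts this was 0.00823%, 0.00806%, 0.00832% and 0.00341%, so captured means were 2.41, 2.36 and 2.44 times the crude mean. Olfactory receptor genes had 1.54%, 1.57%, 1.61% and 0.678% of gene counts in the same order, and so moved in the same direction. On TMM-scaled library sizes the summed 5S counts differed from crude_RNase by 0.20, 0.16 and 0.26 on the log2 scale. No single 5S row had more than 33 counts in a library.

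Of the 12 tested 5S rows, 10 had no crude library at the 2.54 CPM of total counts asked by the filter and so passed through captured libraries. In a comparison 3 of the 12 were called. ENSRNOG00000064405 had 5, 18 and 7 counts in mitoplast_RNase, 21, 22 and 12 in IP_RNase_ProK, 30, 33 and 28 in IP_RNase and 3, 5 and 4 in crude_RNase libraries. IP_RNase was the high group, and none of its libraries overlapped another group. In mitoplast_RNase against IP_RNase the log2 fold change was -1.78 ± 0.333 (edgeR adjusted p = 0.00215), 1 of 35 genes lower in that comparison, and the call was lost without mitoplast_RNase replicate 1 or 3 (adjusted p up to 0.0950). DESeq2 called 0 of the 41 rows in mitoplast_RNase against IP_RNase but gave no adjusted p for 38 of them. In IP_RNase_ProK against IP_RNase the log2 fold change of ENSRNOG00000064405 was -0.94 ± 0.296 and not called (edgeR adjusted p = 0.256). Against crude_RNase it was 1.00 ± 0.515 in mitoplast_RNase, 1.84 ± 0.455 in IP_RNase_ProK and 2.78 ± 0.409 in IP_RNase. No crude library reached the 2.54 CPM that the filter on low counts asked for and the row passed through captured libraries, so these 3 values are a description. The IP_RNase_ProK call was lost without IP_RNase_ProK replicate 2.

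ENSRNOG00000069035 had 10, 9 and 6 counts in mitoplast_RNase, 15, 9 and 14 in IP_RNase_ProK, 5, 7 and 11 in IP_RNase and 0, 0 and 0 in crude_RNase libraries. It was the 1 tested rRNA row at 0 in a whole group. Taken against a floor of 3 counts in each crude library, it was at least 2.23-fold higher in mitoplast_RNase, at least 3.31-fold higher in IP_RNase_ProK and at least 2.34-fold higher in IP_RNase. The row passed the filter on low counts through the captured libraries, so these values are given with no test.

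ENSRNOG00000034597 went the other way, with 9, 13 and 9 counts in mitoplast_RNase, 8, 10 and 11 in IP_RNase_ProK, 6, 8 and 3 in IP_RNase and 27, 18 and 9 in crude_RNase libraries. Its log2 fold change against crude_RNase was -1.08 ± 0.362 in mitoplast_RNase (edgeR adjusted p = 0.0690), -1.20 ± 0.367 in IP_RNase_ProK (edgeR adjusted p = 0.0332) and -1.74 ± 0.412 in IP_RNase (edgeR adjusted p = 0.00284). The IP_RNase call was lost without IP_RNase replicate 3 or crude_RNase replicate 1. The IP_RNase_ProK call was lost in 5 of 12 fits that left out a library (any IP_RNase_ProK replicate, or crude_RNase replicate 1 or 2), with adjusted p up to 0.219. Both called values turned positive under mitochondrial mRNA scaling.

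The most counted 5S row over the 12 libraries, ENSRNOG00000034503, was called in no comparison. It had 29, 21 and 22 counts in mitoplast_RNase, 14, 21 and 13 in IP_RNase_ProK, 14, 11 and 12 in IP_RNase and 21, 12 and 10 in crude_RNase libraries. ENSRNOG00000065316, with 3 to 25 counts in a library, and ENSRNOG00000069982, with 2 to 20, were also called in none. The 3 called 5S rows thus followed 3 different orders of the groups by mean CPM.

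**Figure D5:**
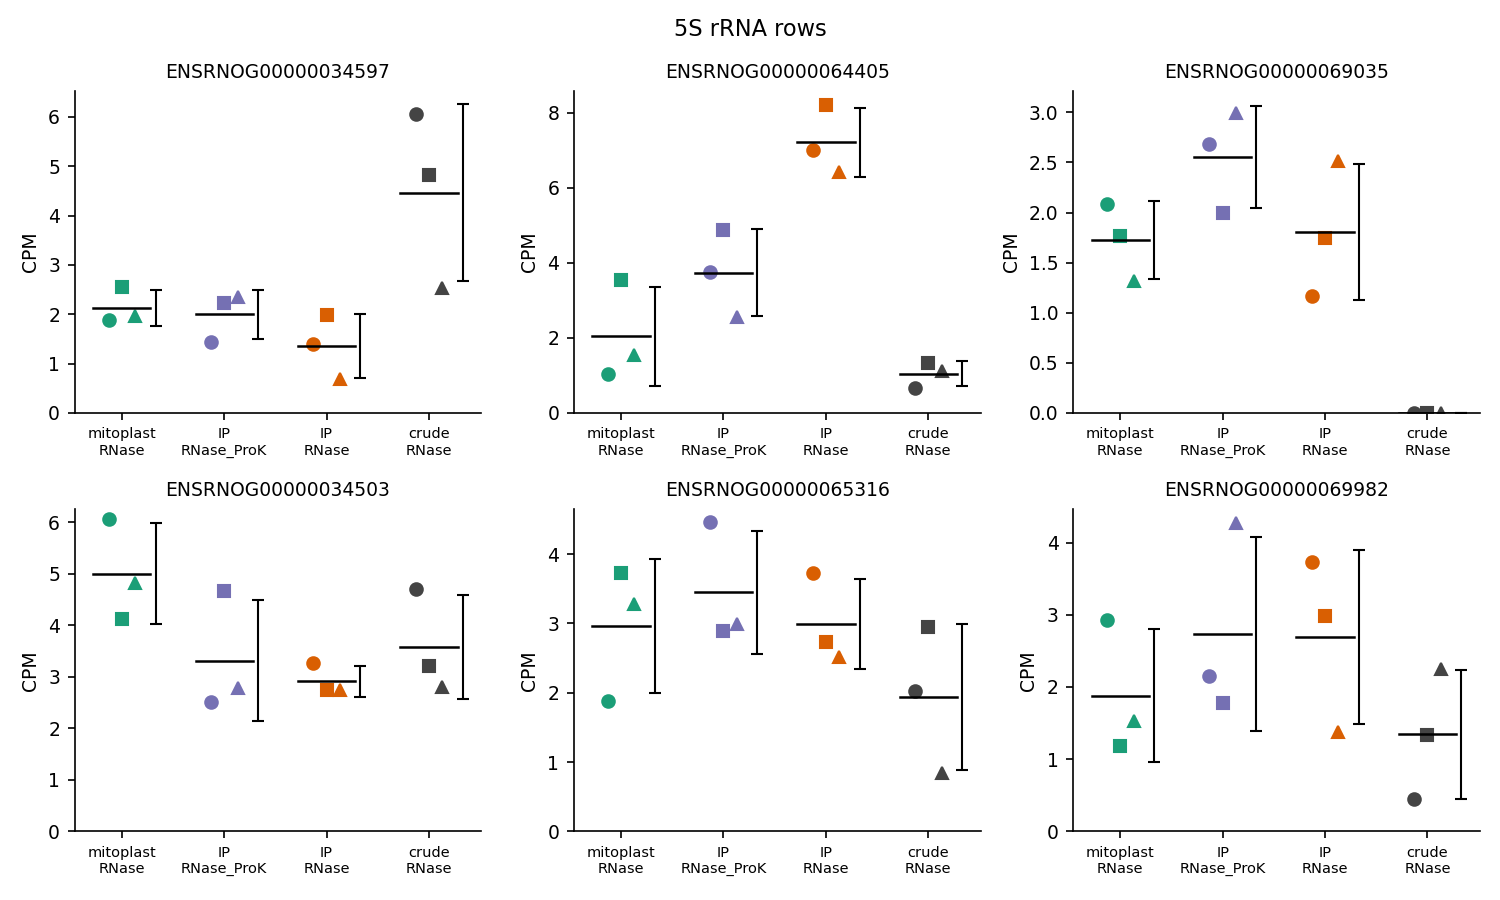
CPM on TMM-scaled library sizes of the named 5S rows in each group; points are libraries (circle, square and triangle for replicates 1, 2 and 3), the horizontal bar is the mean and the vertical bar the SD. ENSRNOG00000064405 is highest in IP_RNase at 7.21 ± 0.918 CPM, ENSRNOG00000069035 is at 0 in crude_RNase and ENSRNOG00000034597 is highest in crude_RNase at 4.47 ± 1.79 CPM.

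The genes that make and complete these RNAs were set beside them as context. Relative to the median gene, 28 of 28 tested mRNAs for proteins of the large cytosolic subunit were lower in each captured group than in crude_RNase, with median log2 fold changes of -1.76 in mitoplast_RNase, -1.80 in IP_RNase_ProK and -1.95 in IP_RNase. Of 26 for the small subunit, 26 were lower in each, with medians of -1.69, -1.61 and -1.75. Rplp0, a protein of the large subunit's stalk, had a log2 fold change of -3.14 ± 0.0939 in IP_RNase against crude_RNase, and Rpsa of the small subunit -2.39 ± 0.0982. Unlike the 18S and 28S rows, which stayed negative, these lists changed sign under mitochondrial mRNA scaling, with medians of 3.16, 3.15 and 1.85 for the large subunit and 3.23, 3.34 and 2.05 for the small subunit. Under library size scaling their medians were -0.69, -0.71 and -0.92 and -0.62, -0.53 and -0.72. The rRNA rows and the ribosomal protein mRNAs were not tested against each other.

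Genes for RNA polymerase I and III transcription and for rRNA processing mostly did not pass the test. In IP_RNase against crude_RNase 5.09% of all tested genes were lower. Of 32 transcription genes 2 were lower there, Ubtf, an activator of RNA polymerase I (-0.33 ± 0.0934, edgeR adjusted p = 0.0189), and Maf1, a repressor of RNA polymerase III (-0.35 ± 0.111, edgeR adjusted p = 0.0395). DESeq2 called 0 of the 32 transcription genes. Of 33 processing and assembly genes 2 were lower, the nucleolar proteins Ncl (-1.07 ± 0.0989, edgeR adjusted p = 8.03e-13) and Npm1 (-1.28 ± 0.122, edgeR adjusted p = 2.52e-12). The list medians were 0.01 and -0.03 and took the shift of all genes under other scalings, with Ubtf and Maf1 positive under scaling by library size and all 4 genes positive under mitochondrial mRNA scaling. The 5S partners Rpl5 (-2.74 ± 0.111, edgeR adjusted p = 9.92e-28) and Rpl11 (-1.31 ± 0.115, edgeR adjusted p = 1.37e-13) were lower but positive under mitochondrial mRNA scaling. Of 4 genes tied to mitochondrial RNA entry (Tst, Mpst, Mrpl18 and Pnpt1), edgeR called 0, with 0 at an unadjusted p under 0.05, and DESeq2 called 0.

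Markers of cell types moved unevenly in IP_RNase against crude_RNase. All 8 tested muscle fibre markers were lower, with a median log2 fold change of -3.59, as were 4 of 4 fibroblast markers, with a median of -2.09. The muscle fibre and fibroblast medians were 0.24 and 1.74 under mitochondrial mRNA scaling. Of the remaining lists, 1 of 2 erythroid and 1 of 3 macrophage markers were lower, all of them positive under scaling by library size, and 0 of 4 endothelial markers were called by edgeR (0 at an unadjusted p under 0.05) or DESeq2. The rRNAs of mitochondrial ribosomes, AY172581.24 and AY172581.9, had log2 fold changes of -4.35 ± 0.403 and -4.17 ± 0.409 in the same comparison. Together they took 2.05%, 1.55% and 1.01% of gene counts in mitoplast_RNase, 0.566%, 1.11% and 1.28% in IP_RNase_ProK, 1.42%, 0.772% and 5.34% in IP_RNase and 18.3%, 24.5% and 28.7% in crude_RNase libraries. The part of these differences in the 18S and 28S results was not tested.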

How the data were processed

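RNA of 12 rat mitochondrial preparations was analysed from the table of whole-number read counts per gene that the authors deposited, with no normalisation, per the file headers and values. Per the labels' protocols, rRNA-depleted total RNA libraries were made after on-column DNase I treatment. Per the submitters' processing notes, FastQC 0.74, cutadapt 4.6, STAR 2.7.11a, HTSeq and the build mRatBN7.2 were used. The sources used here give neither the strand setting nor how multiply matching reads were counted. Sequences of these rRNAs and gene lengths were not used here, so counts were not compared between RNAs as levels.

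Libraries were grouped by their titles, and 0 columns of other samples were present. Counts of the 12 libraries were tested in a single 4-group model with edgeR 4.0.16 (limma 3.58.1, R 4.3.3): filterByExpr with a count minimum of 10, TMM scaling, quasi-likelihood F tests and Benjamini-Hochberg adjustment over 26483 genes, threshold 0.05. The fit was tested on simulated data. CPM values use TMM-scaled library sizes. TMM factors were 0.525 to 0.679 in crude and 1.12 to 1.23 in captured libraries. Shares, sums and ratios of counts are descriptions with no test. SE is the log2 fold change divided by the root of F. Floors and intervals cover counting error only, since PCR copies are not independent molecules. Context lists kept genes whose symbol occurs once.

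The rRNA rows and gene lists were chosen with earlier results of these data known. The rows named are the tested 18S and 28S rows, 5S rows called in any comparison, the 5 tested 5S rows with the highest mean CPM and 5.8S rows that were called; other 5.8S rows are given by counts and ranges, with the 2 next most counted named after their values were seen. Alternatives were other scalings, no filter, DESeq2 1.42.0, summed classes, 2 groups only, a replicate block and leaving out each library. The context lists were put through the other scalings after the data had been seen.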

Additional observations from a re-analysis of the deposited data

How the results depend on the processing

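The 18S and 28S rows kept a negative log2 fold change against crude_RNase under every alternative tried, with -8.63 to -0.56 as the extremes over rows and comparisons. Scaling by library size moved the median of all tested genes by 1.08 in mitoplast_RNase, 1.09 in IP_RNase_ProK and 1.03 in IP_RNase against crude_RNase, and scaling on mitochondrial mRNAs by 4.93, 4.95 and 3.81; scaling on olfactory receptor genes moved it by -0.11, -0.12 and -0.21. The number of rRNA rows called against crude_RNase, in the order mitoplast_RNase, IP_RNase_ProK and IP_RNase, was 32, 30 and 28 under library size scaling, 40, 41 and 41 under mitochondrial mRNA scaling, 10, 15 and 20 with no filter, and 3, 3 and 5 with DESeq2, which gave no adjusted p for 11 called values. With rows summed by class 3 sums were called in each of these comparisons. In mitoplast_RNase against IP_RNase and IP_RNase_ProK against IP_RNase, mitochondrial mRNA scaling gave 32 and 35 calls, summed classes gave 0 in both, and DESeq2 gave 0 in both but no adjusted p for 38 and 37 of the 41 rows. In mitoplast_RNase against IP_RNase_ProK, fitting only those 2 groups gave 1. In mitoplast_RNase, IP_RNase_ProK and IP_RNase against crude_RNase, DESeq2 called 1007, 1112 and 1128 of the 26483 tested genes. For the other alternatives the number of all genes called is not given here. The counts of rRNA rows under them therefore do not show more or fewer calls than among other genes. The causes of the changes between settings were not tested.

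Under mitochondrial mRNA scaling the following log2 fold changes turned sign. ENSRNOG00000070263 was 4.603, 4.53 and 2.57 in mitoplast_RNase, IP_RNase_ProK and IP_RNase against crude_RNase, and ENSRNOG00000063349 was 3.58, 3.55 and 2.45. ENSRNOG00000034597 was 3.68 in IP_RNase_ProK and 1.98 in IP_RNase, ENSRNOG00000069942 was 2.87 and ENSRNOG00000069242 was 2.15 in IP_RNase. Between captured groups ENSRNOG00000062337 was 0.85 in mitoplast_RNase against IP_RNase, 0.90 in IP_RNase_ProK against IP_RNase and -0.0440 in mitoplast_RNase against IP_RNase_ProK. ENSRNOG00000064743 was 0.50 in IP_RNase_ProK against IP_RNase, and ENSRNOG00000068307 was 1.06 in mitoplast_RNase against IP_RNase. Under library size scaling ENSRNOG00000070263 was 0.72 in mitoplast_RNase and 0.68 in IP_RNase_ProK, and ENSRNOG00000069942 was 0.14 in IP_RNase. ENSRNOG00000062337, near 0 in mitoplast_RNase against IP_RNase_ProK, was -0.0101 under library size scaling and -0.0136 with DESeq2, and ENSRNOG00000068307 was -0.000119 in IP_RNase_ProK against IP_RNase with 2 groups fitted.

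The share of rRNA counts without the main 18S row was 0.0371%, 0.0351%, 0.0331% and 0.141% in mitoplast_RNase, IP_RNase_ProK, IP_RNase and crude_RNase libraries, and the crude share among nuclear genes was 4.44%. Leaving out each library gave 4 to 7, 6 to 9 and 8 to 11 called rows in mitoplast_RNase, IP_RNase_ProK and IP_RNase against crude_RNase, 0 to 3 in mitoplast_RNase against IP_RNase (0 without mitoplast_RNase replicate 3, 1 without mitoplast_RNase replicate 1, 3 without IP_RNase replicate 3), 0 to 2 in IP_RNase_ProK against IP_RNase (0 without IP_RNase replicate 1 or IP_RNase_ProK replicate 2, 2 without IP_RNase replicate 2) and 0 to 1 in mitoplast_RNase against IP_RNase_ProK. Between captured groups it moved ENSRNOG00000068307 from -0.26 to 0.10 in mitoplast_RNase and from -0.14 to 0.22 in IP_RNase_ProK against IP_RNase, and ENSRNOG00000064743 from -0.0865 to 1.78 and from -1.45 to 0.42 in the same comparisons. In mitoplast_RNase against IP_RNase_ProK it moved ENSRNOG00000062337 from -0.28 to 0.30 and ENSRNOG00000070263 from -0.20 to 0.22. The number of all genes called with a library left out is not given here. The ranges of called rRNA rows therefore do not show more or fewer calls than among other genes.

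Same-numbered libraries did not deviate together (18 pairs, correlations -0.102 to 0.0665, beside -0.0903 to 0.123 in 36 pairs of unlike number). No pairing by replicate number was seen, though correlations over all tested genes, with counting noise in each, cannot exclude it. A replicate block left 5, 8 and 10 rows called in mitoplast_RNase, IP_RNase_ProK and IP_RNase against crude_RNase, 2 in mitoplast_RNase against IP_RNase, 1 in IP_RNase_ProK against IP_RNase and 0 in mitoplast_RNase against IP_RNase_ProK, with ENSRNOG00000062337 at -0.0397 in the last comparison. The number of all genes called with the replicate block is not given here either, so the same limit holds for its called rRNA rows. Most 5S rows were too shallow to compare at this depth.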
